A study of Mus musculus with 8 samples.

Results

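The 10 genes described here encode the chaperonins of 2 compartments of the mouse cell. Tcp1, Cct2, Cct3, Cct4, Cct5, Cct6a, Cct7 and Cct8 encode the 8 subunits of the cytosolic chaperonin (CCT, also called TRiC), and Hspd1 and Hspe1 encode the mitochondrial chaperonin Hsp60 and its cofactor Hsp10. Every probe set annotated with 1 of these symbols alone was taken, which gave 10 of 8251 genes and 16 of 12488 probe sets on the array, 13 for the cytosolic and 3 for the mitochondrial chaperonin. Of the 16, 14 were among the brightest 60% by mean signal over all arrays and were tested, and each of the 10 genes had at least 1 tested probe set.

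The arrays measured total RNA of follicular B cells from mice whose antigen receptor bound hen egg lysozyme (HEL). The IgMG cells carried a chimeric receptor, an IgM whose extracellular spacer, membrane-spanning part and cytoplasmic tail came from IgG1, and the IgM cells carried the unaltered IgM. The 4 groups were IgMG with HEL (8 and 6 mice pooled on the 2 arrays, from 3 and 2 sorts), IgMG unstimulated (5 and 6 mice, 2 sorts each), IgM with HEL (4 and 2 mice, 2 and 1 sorts) and IgM unstimulated (2 and 4 mice, 1 and 2 sorts). The IgMG arrays thus pooled 5 to 8 mice and the IgM arrays 2 or 4, so receptor and number of mice pooled cannot be told apart. The duration and dose of HEL, the strain and the age of the mice are not stated in the labels. The titles number the 2 arrays of each group as experiments 1 and 2, and the 2 pools of every group differ in their number of mice. Whether any arrays shared animals or sorts is not stated, so the p-values measure the spread between these pooled samples.

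A chaperonin is a barrel-shaped machine that encloses an unfolded protein and uses ATP to help it fold. The cytosolic chaperonin is built of stacked rings in which each subunit has its own fixed place, and actin and tubulin are its best known clients. It receives many of them from prefoldin, a smaller chaperone that holds nascent chains. In the mitochondrial matrix, Hsp60 forms the barrel and Hsp10 the lid, and together they fold proteins that have just been imported. B cells that meet antigen grow in size and in protein synthesis before they divide.

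Hspd1 and Hspe1 lie head to head on chromosome 1. Their promoter is shown first because 1 annotated Hspd1 start shares it with Hspe1, while their RNAs were measured apart. In RefSeq (GRCm38.p6) 1 annotated Hspd1 start, at position 55087932 on the minus strand, lies 216 bases from the Hspe1 start at 55088148 on the plus strand, and windows of 250 bases before to 50 bases after these starts overlap by 285 bases. Another annotated Hspd1 start lies at 55088243, on the far side of the Hspe1 start. Its window overlaps the Hspe1 window by 4 bases and does not hold the 18-base run described below. There were 12 windows, for 9 of the 10 genes. Both heat shock cores, GAANNTTC and TTCNNGAA, were searched; each reads the same on the opposite strand, and their matches may overlap. The Hspe1 window, chr1:55087898-55088197 on the plus strand, held an 18-base run of overlapping cores, in capitals, at bases -89 to -72 counted from 0 at the start.
Hspe1: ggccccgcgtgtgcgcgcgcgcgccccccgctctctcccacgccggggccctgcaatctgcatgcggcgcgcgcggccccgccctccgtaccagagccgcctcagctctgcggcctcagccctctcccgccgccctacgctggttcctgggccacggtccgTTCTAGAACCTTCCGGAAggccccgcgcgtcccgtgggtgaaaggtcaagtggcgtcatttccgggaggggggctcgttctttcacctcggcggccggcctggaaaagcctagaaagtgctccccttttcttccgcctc
A core of either kind was found in 5 of the 12 windows (1 each of Cct2, Cct5, Cct6a, Hspd1 and Hspe1, the last 2 of which hold the same 18 bases) and in 15.1% of all 32851 mouse promoter windows of that length. The windows of the 3 cytosolic subunits that hold a core are shown for comparison, with the core in capitals. They are Cct6a at chr5:129787106-129787405 on the plus strand, Cct5 at chr15:31601797-31602096 on the minus strand and Cct2 at chr10:117063326-117063625 on the minus strand.
Cct6a: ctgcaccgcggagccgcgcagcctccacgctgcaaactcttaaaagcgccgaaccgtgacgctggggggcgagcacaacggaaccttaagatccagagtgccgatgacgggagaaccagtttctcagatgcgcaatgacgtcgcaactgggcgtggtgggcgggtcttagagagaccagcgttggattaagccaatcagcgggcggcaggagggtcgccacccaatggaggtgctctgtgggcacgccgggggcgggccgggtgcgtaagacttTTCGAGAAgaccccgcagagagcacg
Cct5: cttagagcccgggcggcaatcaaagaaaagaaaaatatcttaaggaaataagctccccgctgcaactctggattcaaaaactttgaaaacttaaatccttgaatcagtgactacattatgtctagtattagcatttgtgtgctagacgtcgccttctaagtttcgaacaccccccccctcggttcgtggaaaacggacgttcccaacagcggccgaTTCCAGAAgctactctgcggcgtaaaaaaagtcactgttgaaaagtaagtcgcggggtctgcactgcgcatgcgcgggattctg
Cct2: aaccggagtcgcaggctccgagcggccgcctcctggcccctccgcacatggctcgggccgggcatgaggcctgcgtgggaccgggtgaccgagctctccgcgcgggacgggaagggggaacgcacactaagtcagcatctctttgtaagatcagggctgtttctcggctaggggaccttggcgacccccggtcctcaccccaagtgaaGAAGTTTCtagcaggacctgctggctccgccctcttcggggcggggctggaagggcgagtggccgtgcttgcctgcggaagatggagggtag
Cct3 (chr3:88296885-88297184, plus strand) and Cct8 (chr16:87495820-87496119, minus strand) are shown because their RNA rose with HEL in IgM cells, and neither window holds a core.
Cct3: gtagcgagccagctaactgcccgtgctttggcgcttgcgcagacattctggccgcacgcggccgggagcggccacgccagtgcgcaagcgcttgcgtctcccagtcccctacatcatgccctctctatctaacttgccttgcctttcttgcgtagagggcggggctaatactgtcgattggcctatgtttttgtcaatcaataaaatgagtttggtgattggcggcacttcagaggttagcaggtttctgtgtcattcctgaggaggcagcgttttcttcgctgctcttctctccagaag
Cct8: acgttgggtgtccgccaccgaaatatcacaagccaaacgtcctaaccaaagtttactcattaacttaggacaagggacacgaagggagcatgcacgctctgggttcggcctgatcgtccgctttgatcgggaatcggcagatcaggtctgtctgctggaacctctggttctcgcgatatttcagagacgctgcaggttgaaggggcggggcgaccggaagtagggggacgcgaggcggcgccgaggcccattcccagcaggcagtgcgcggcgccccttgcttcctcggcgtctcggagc
Among other motifs searched on both strands, the ETS core CCGGAAG was in 5 of the 12 windows (8.86% of all windows), the CCAAT box CCAAT in 5 (37.4%), the GC box GGGCGG in 11 (35.7%) and the E-box CACGTG in 1, of Hspd1 (7.15%). The ETS core overlaps the heat shock cores in the overlapping Hspd1 and Hspe1 windows. There the ETS matches are the same bases in both windows, and some GC box matches are shared as well, so these counts are not all of separate sites. These matches describe letters in the window and were not tested as binding sites.

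2 arrays stood apart from the rest. The ratio of 5′ to 3′ Gapdh probe signal, a measure of RNA integrity and labelling, was 0.755 on the second IgM array with HEL. It was between 0.140 and 0.395 on the other 7. A high ratio is not read here as a fault. The ratio was 0.221 and 0.140 in IgMG cells with HEL, lower than on every other array, against 0.237 and 0.395 unstimulated. In IgM cells it was 0.328 and 0.755 with HEL, against 0.373 and 0.259. The ratio and the IgMG group with HEL thus cannot be fully told apart. The summed signal of NK cell markers was 3701 on the second unstimulated IgMG array and 353 to 1018 on the others, and that of myeloid markers was 19024 against 2078 to 8752. B cell identity markers, 11 of 12 on the array, summed to 41626 to 55200 on every array, although with HEL 1 of the 11 fell in IgMG cells (Cd79b, a receptor signalling chain, log2 change -0.63 ± 0.14) and 4 fell in IgM cells (Cd79b -1.01 ± 0.14, Pax5 -1.02 ± 0.22, Blnk -1.18 ± 0.18 and Cd22 -0.98 ± 0.15). T cell markers, of which 2 of 11 were bright enough to be tested, summed to 162 to 304. Erythroid markers, 8 of 12 on the array, summed to 13471 to 21658, most of it from Hba-a1 (9595 to 16616). With HEL their median log2 change was -0.05 in IgMG cells and -0.72 in IgM cells. Of the 8, 3 and 1 were above 0, and none was called (limma). Their part in the chaperonin values was not tested.

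**Figure D1:**
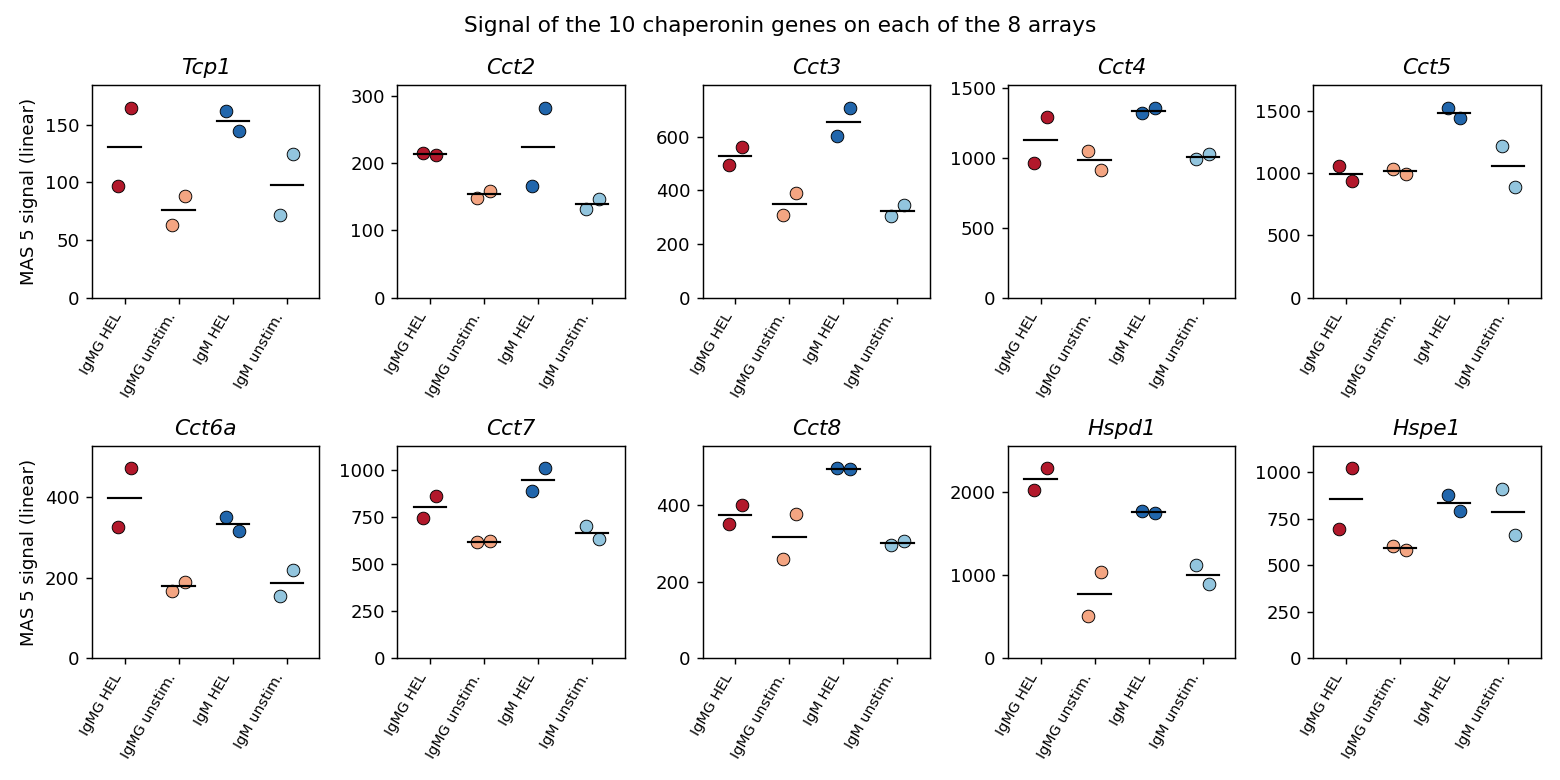
Signal of each chaperonin gene on a linear scale (brightest probe set; vertical axes differ between genes and start at 0), by group. Points are the 2 arrays of a group and the line is their mean; for Hspd1 both HEL arrays of each receptor lie above both of its unstimulated arrays.

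In IgMG cells the RNA of 2 of the 10 genes, Hspd1 and Cct6a, rose with HEL. Such rises were called for 3.23% of the 7453 probe sets tested, and falls for 2.42%. Of the 10 changes 9 were above 0, as were 44.8% of all, with a median log2 change of 0.47 against -0.05 over all probe sets tested. In 7 of 10 genes the 2 HEL arrays lay above both unstimulated ones, as for 23.7% of all probe sets. In IgM cells 2 genes rose, Cct3 and Cct8, where 6.7% of all probe sets were called higher and 7.31% lower. All 10 changes were above 0, as were 48% of all, with a median of 0.60 against -0.02, and in 9 genes the groups did not overlap, as for 27.6% of all. At an unadjusted p under 0.05 the counts were 4 genes in IgMG cells (22.3% of all probe sets) and 8 in IgM cells (28.7%). The count in IgMG cells was 0 without either IgMG array with HEL and 1 (Hspd1) without any 1 of the unstimulated IgMG arrays or IgM arrays with HEL. The count in IgM cells was 0 without the second IgM array with HEL or the first unstimulated IgM array, and 4 without either unstimulated IgMG array. Without both arrays that stood apart, Hspd1 and Cct6a were called in IgMG cells, and Cct3 and Hspd1 in IgM cells. In bulk RNA, fewer cells of a type and less RNA per cell cannot be told apart. The summed signal of plasma cell markers (6 of 6 on the array) was 3911 and 3468 in IgMG cells with HEL, against 883 and 1393 unstimulated, and 5957 and 6580 in IgM cells with HEL, against 955 and 950. That difference lay in Irf4, which activated B cells also express and which rose in both receptors (log2 change 2.73 ± 0.17 and 3.72 ± 0.17). The other 5 genes summed to 613.2 and 574.3 in IgMG cells with HEL, against 393.8 and 974.0 unstimulated, and to 517.4 and 489.8 in IgM cells with HEL, against 582.3 and 469.5. Jchain had log2 changes of -1.59 ± 0.80 and -1.46 ± 0.80, and Sdc1 and Prdm1 were too dim to test.

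Among the subunits of the cytosolic ring, Cct6a passed the test in IgMG cells, and Cct3 and Cct8 in IgM cells. Cct6a (zeta subunit) had signals of 325.1 and 470.3 in IgMG cells with HEL, against 167.4 and 189.0 in unstimulated IgMG cells. It had 349.3 and 316.5 in IgM cells with HEL, against 155.1 and 219.2 in unstimulated IgM cells. Both HEL arrays lay above both unstimulated ones in each receptor. Its rise was 2.10-fold in IgMG cells (log2 change 1.07 ± 0.23, SE, adjusted p = 0.0328, limma), while in IgM cells the log2 change of 0.80 ± 0.23 missed the threshold (adjusted p = 0.0510, limma). In IgMG cells it missed the threshold without any 1 of the 6 arrays other than the unstimulated IgM ones (adjusted p from 0.0513 to 0.242, limma). The probe set is of a family type (suffix f), which may bind related transcripts, and the other Cct6a probe set was too dim to test, at 5.8 to 16.9.

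Cct3 (gamma subunit) had signals of 495.9 and 562.2 in IgMG cells with HEL, against 307.7 and 389.5 in unstimulated IgMG cells. In IgM cells it had 603.3 and 707.9 with HEL, against 302.9 and 345.2 unstimulated. In both receptors the HEL arrays lay above the unstimulated ones. The log2 change was 0.59 ± 0.18 (SE) in IgMG cells (adjusted p = 0.100, limma) and 0.98 ± 0.18 in IgM cells (adjusted p = 0.00966, limma), a 1.97-fold rise that missed the threshold without the second IgM array with HEL (adjusted p = 0.0727) or the first unstimulated one (adjusted p = 0.0755). A further, dimmer probe set annotated as Cct3 had log2 changes of 0.51 and 0.67, which missed the threshold (adjusted p = 0.303 and 0.141, limma). The remaining probe set annotated as Cct3 was unlike both. It had 299.3 and 222.4 in IgMG cells with HEL, against 190.0 and 334.4 in unstimulated IgMG cells, and 505.1 and 967.2 in IgM cells with HEL, against 197.4 and 208.7 unstimulated, so that its groups overlapped in IgMG cells and not in IgM cells. Its log2 change was 0.03 ± 0.34 in IgMG cells (adjusted p = 0.975, limma), and it rose by 1.71 ± 0.34 in IgM cells (adjusted p = 0.0114, limma). The difference of the responses was -1.68 ± 0.48 (unadjusted p = 0.00648, adjusted p = 0.412, limma), and with HEL the IgMG and IgM cells differed by -1.38 ± 0.34 (unadjusted p = 0.00266, adjusted p = 0.224, limma). That this probe set measures Cct3 rests on the platform's annotation alone.

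Cct8 (theta subunit) had signals of 351.0 and 399.8 in IgMG cells with HEL, against 260.0 and 376.7 in unstimulated IgMG cells, and the groups overlapped. It had 496.6 and 495.5 in IgM cells with HEL, against 296.9 and 306.4 unstimulated, and the groups did not overlap. The log2 change was 0.25 ± 0.20 (SE) in IgMG cells (adjusted p = 0.518, limma), and in IgM cells Cct8 rose by 0.69 ± 0.20 (adjusted p = 0.0490, limma). That call was lost without any 1 array other than the unstimulated IgMG ones (adjusted p from 0.0830 to 0.192) and without both arrays that stood apart (0.0681). Cct7 (eta subunit) had 747.7 and 862.3 in IgMG cells with HEL, against 617.4 and 622.2 unstimulated, and 887.3 and 1008.3 in IgM cells with HEL, against 702.7 and 631.2. No group of Cct7 overlapped its control, and the log2 changes of 0.37 ± 0.16 and 0.50 ± 0.16 (adjusted p = 0.207 and 0.0651, limma) missed the threshold.

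Cct5 (epsilon subunit) gave the lowest change of the 8 subunits in IgMG cells. Its signals were 1055.7 and 935.9 in IgMG cells with HEL, against 1035.3 and 993.4 in unstimulated IgMG cells, a log2 change of -0.03 ± 0.17 (SE). They were 1527.0 and 1441.4 in IgM cells with HEL, against 1222.4 and 891.8 unstimulated, a log2 change of 0.50 ± 0.17 (adjusted p = 0.0930, limma) with no overlap of the groups. A second, dimmer Cct5 probe set gave log2 changes of 0.30 and 0.28. Cct4 (delta subunit) had 962.1 and 1293.6 in IgMG cells with HEL, against 1048.9 and 916.3, and 1317.7 and 1359.0 in IgM cells with HEL, against 989.2 and 1027.8, with log2 changes of 0.18 ± 0.17 and 0.40 ± 0.17 that missed the threshold (adjusted p = 0.587 and 0.159, limma). Tcp1 (alpha subunit) and Cct2 (beta subunit) had log2 changes of 0.66 ± 0.30 and 0.44 ± 0.24 in IgMG cells and 0.61 ± 0.30 and 0.59 ± 0.24 in IgM cells, none past the threshold. Signals of Tcp1 ranged from 62.8 to 164.7 over the 8 arrays and those of Cct2 from 131.6 to 282.9. The other Tcp1 probe set was too dim to test, at 1.0 to 15.

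Hspd1, which encodes the barrel of the mitochondrial chaperonin, had signals of 2020.1 and 2283.5 in IgMG cells with HEL, against 504.7 and 1034.0 in unstimulated IgMG cells. It had 1771.0 and 1751.7 in IgM cells with HEL, against 1121.2 and 890.3 in unstimulated IgM cells. All 4 HEL arrays were above all 4 unstimulated ones, and the lowest of the 8 was the first unstimulated IgMG array. The means were 2151.8 ± 186.3 (SD, n = 2) in IgMG cells with HEL, against 769.4 ± 374.3 (SD, n = 2) unstimulated, a rise of 2.93-fold (log2 change 1.55 ± 0.29, SE, adjusted p = 0.0191, limma). In IgM cells they were 1761.4 ± 13.6 (SD, n = 2) with HEL, against 1005.8 ± 163.3 (SD, n = 2) unstimulated, and the log2 change of 0.81 ± 0.29 missed the threshold (adjusted p = 0.0974, limma). The rise in IgMG cells had a log2 size of 2.06 without the second unstimulated IgMG array and 1.04 without the first, and missed the threshold without either IgMG array with HEL (adjusted p = 0.0907 and 0.163, limma). In IgM cells the response passed the threshold without either unstimulated IgMG array (adjusted p = 0.00997 and 0.00990, limma). With both Hspd1 probe sets averaged, the log2 changes were 0.98 ± 0.19 in IgMG cells (adjusted p = 0.0193, limma) and 0.25 ± 0.19 in IgM cells. The second, dimmer Hspd1 probe set had 53.1 and 48.1 in IgMG cells with HEL, against 55.3 and 18.9, and 59.2 and 43.2 in IgM cells with HEL, against 85.2 and 50.5, and its log2 changes of 0.42 ± 0.37 and -0.30 ± 0.37 had opposite signs.

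Hspe1, the lid of the same chaperonin, passed the test in neither receptor. Its 1 probe set had signals of 694.9 and 1020.8 in IgMG cells with HEL, against 602.3 and 583.7 unstimulated, and 879.3 and 792.4 in IgM cells with HEL, against 908.3 and 660.4. The groups overlapped in IgM cells and not in IgMG cells. The log2 changes of 0.50 ± 0.22 (SE) in IgMG cells and 0.11 ± 0.22 in IgM cells missed the threshold (adjusted p = 0.225 and 0.801, limma). As a description, the log2 ratio of Hspd1 to Hspe1, centred on its mean over the 8 arrays, was 0.76 and 0.39 in IgMG cells with HEL, against -1.01 and 0.05 unstimulated, and 0.24 and 0.37 in IgM cells with HEL, against -0.46 and -0.34.

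**Figure D2:**
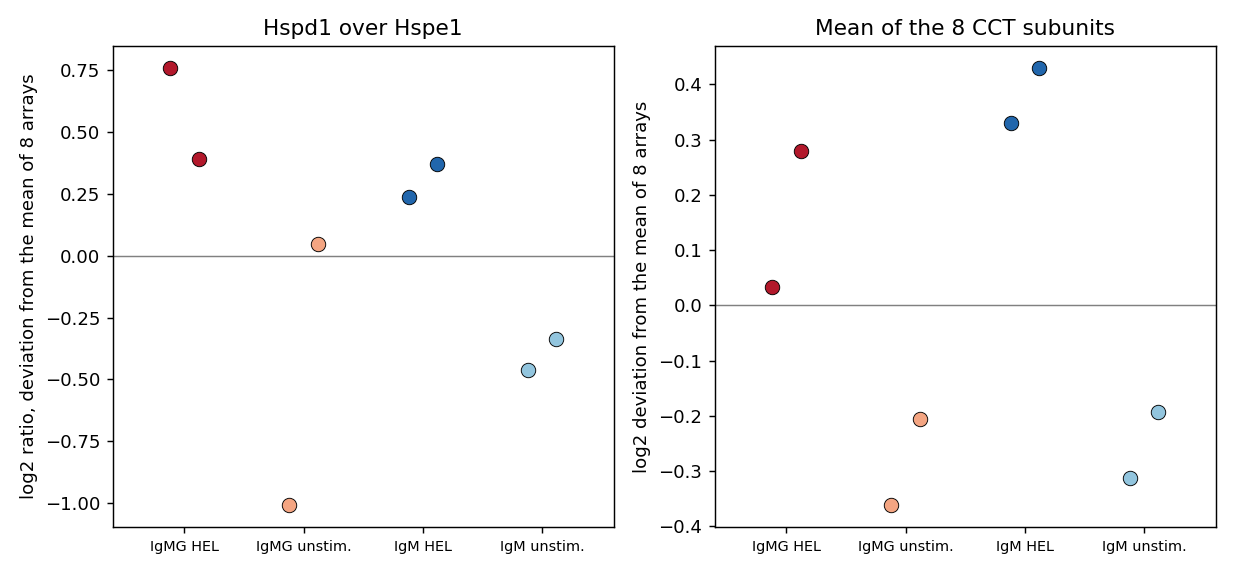
Log2 ratio of Hspd1 to Hspe1 (left) and mean log2 deviation of the 8 cytosolic subunits (right), each centred on the mean of the 8 arrays. Points are single arrays, the HEL group left of its unstimulated group; the first unstimulated IgMG array is lowest in both panels.

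The mean HEL response over both receptors, a contrast added after seeing the data, was called for 5 of the 10 genes, with rises for Cct3, Cct6a, Cct7, Cct8 and Hspd1, where 9.26% of all probe sets were called higher. At an unadjusted p under 0.05 there were 8 (33.6% of all), and all 10 changes were above 0 (46% of all). By the brightest probe set the largest rise was Hspd1 at 2.26-fold (log2 change 1.18 ± 0.20, SE, adjusted p = 0.00455, limma), followed by Cct6a at 1.91-fold (0.93 ± 0.16, adjusted p = 0.00481) and Cct3 at 1.72-fold (0.78 ± 0.13, adjusted p = 0.00378). With a gene's probe sets averaged, the order of these 3 changed, since Hspd1 had 0.62 ± 0.13 (adjusted p = 0.0112), Cct6a 0.93 and Cct3 0.75. Cct8 and Cct7 rose by 0.47 ± 0.14 and 0.43 ± 0.11 on the log2 scale (adjusted p = 0.0436 and 0.0240, limma). In 5 genes (Cct2, Cct3, Cct6a, Cct7 and Hspd1) all 4 HEL arrays lay above all 4 unstimulated ones, as in 10.8% of all probe sets. The 5 genes not called, Tcp1, Cct2, Cct4, Cct5 and Hspe1, had adjusted p from 0.0616 to 0.218 (limma).

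**Figure D3:**
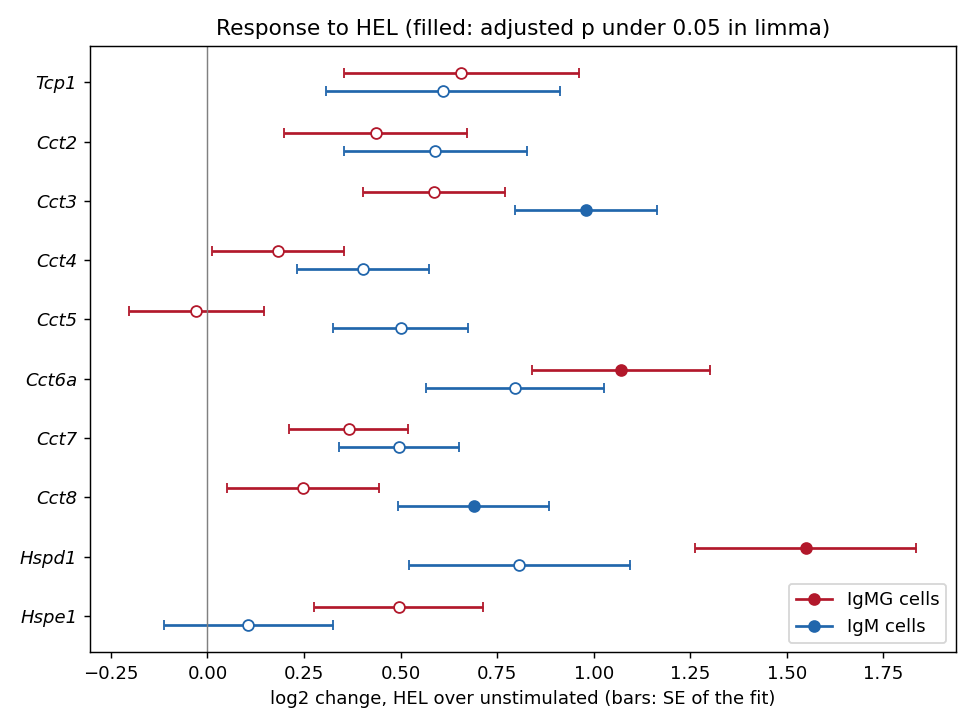
Log2 change with HEL in IgMG cells (red, above) and IgM cells (blue, below) for each gene, with the standard error of the fit; filled points passed an adjusted p under 0.05. Hspd1 and Cct6a are filled in IgMG cells, Cct3 and Cct8 in IgM cells.

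That different genes passed in the 2 receptors does not show that the responses differ, so the difference itself was tested. None of the 10 genes had a difference of HEL responses that passed limma's threshold, as for 0% of all probe sets, and none had an unadjusted p under 0.05, as 10.1% of all had, when each gene was given by its brightest probe set. The exception among the 14 probe sets was the divergent one described above, which is Cct3 by annotation alone (unadjusted p = 0.00648, limma). For Hspd1 the response in IgMG cells exceeded that in IgM cells by 0.74 ± 0.40 on the log2 scale (95% interval -0.17 to 1.66, adjusted p = 0.531, limma). Hspe1 was on the same side, at 0.39 ± 0.31 (-0.31 to 1.09). Of all differences 48.7% were above 0, and 4 of the 10 genes were. For 6 of the 8 cytosolic subunits the difference was below 0, from -0.53 ± 0.25 for Cct5 (-1.09 to 0.03) to -0.13 ± 0.22 for Cct7 (-0.63 to 0.37), and for Tcp1 and Cct6a it was 0.05 ± 0.43 and 0.27 ± 0.33. With simulated data, a difference of this kind was recovered for 8% of genes when it was 1 on the log2 scale and 53% when it was 2. The simulation changed a small share of genes in 1 group, which may differ from the real data. Its recoveries are thus a rough guide, and differences of the sizes seen here could go undetected.

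**Figure D4:**
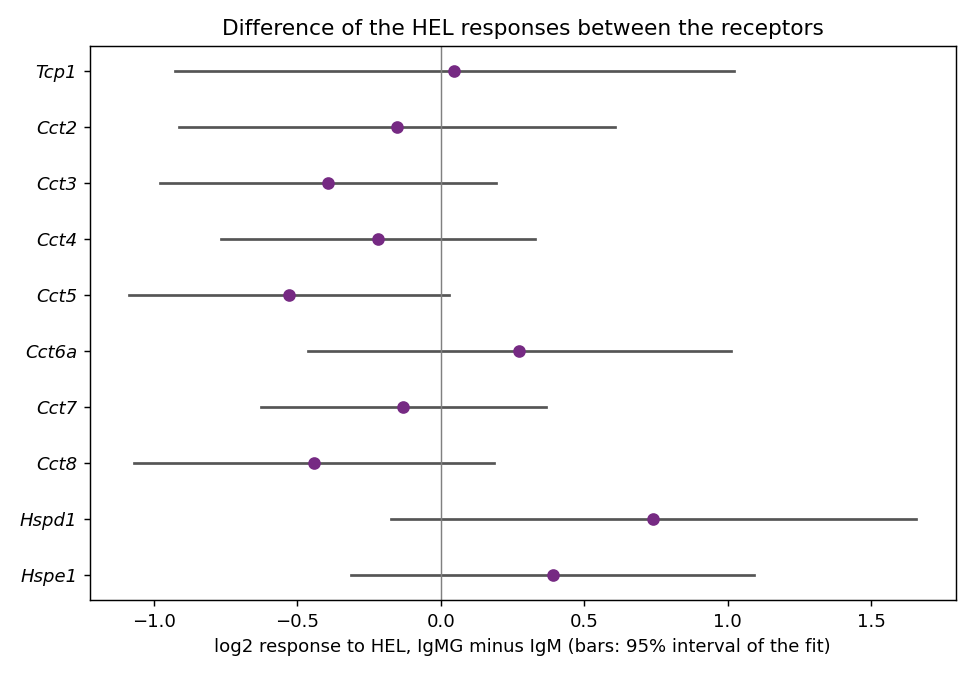
Difference of the log2 HEL response, IgMG minus IgM, with the 95% interval of the fit for each gene. Every interval includes 0; both mitochondrial genes lie to the right of 0 and 6 of the 8 cytosolic ones to the left.

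Compared directly with HEL present, none of the 10 genes differed between IgMG and IgM cells past limma's threshold, where 0.0134% of all probe sets did. By the brightest probe sets 1 (Cct5) had an unadjusted p under 0.05, as 14% of all had. The divergent probe set annotated as Cct3 also did (log2 difference -1.38). 3 of the 10 log2 differences were above 0 (49.6% of all). The Cct5 log2 difference was -0.57 ± 0.17 (SE, adjusted p = 0.245, limma). Both IgMG arrays lay below both IgM arrays for 5 cytosolic subunits (Cct3, Cct4, Cct5, Cct7 and Cct8), as for 24.4% of all probe sets, and above them for Hspd1, as for 23.9%. Without HEL, no gene differed (all adjusted p = 0.995, limma; 0% of all probe sets called), none had an unadjusted p under 0.05 (4.6% of all), and log2 differences ranged from -0.46 for Hspd1 to 0.13 for Cct2, with 3 of 10 above 0 (51.3% of all). Both IgMG arrays lay above both IgM arrays for Cct2, as for 16.4% of all, and below them for Cct7 and Hspe1, as for 15.1%. NK cell and myeloid markers had median log2 differences of 0.97 and 1.21 between IgMG and IgM cells with HEL, and of 1.04 and 0.85 without it. In each case 7 of 7 NK cell and 15 of 16 myeloid genes tested were above 0. The NK cell markers had mean log2 deviations of -0.32 and 1.77 on the unstimulated IgMG arrays, against -0.57 and -0.45 on the unstimulated IgM ones. For myeloid markers they were -0.44 and 1.11, against -0.31 and -0.53. By these list means, the unstimulated differences rested mainly on the second unstimulated IgMG array, which stood apart. Single myeloid genes varied on the first. There C1qa was 153.3, against 66.5 and 72.8 on the unstimulated IgM arrays, and Vcam1 was 225.8, against 102.7 and 119.0. S100a8 went the other way at 371.1, against 1568.0 and 963.0, as did Ngp at 173.9, against 591.9 and 396.5. Marginal zone B cell markers, 4 of 6 on the array, had medians of 0.66 with HEL (3 of 4 above 0) and 0.76 without it (4 of 4), and 3 of the 4 had an unadjusted p under 0.05 without HEL. No marker of these 3 lists passed the threshold in either comparison (limma), and at an unadjusted p under 0.05 there were 2 NK cell, 7 myeloid and 2 marginal zone genes with HEL and 3 NK cell and 7 myeloid genes without. With HEL in IgM cells, the marginal zone marker Cd1d1 fell (-1.72 ± 0.25) and Dtx1 rose (1.03 ± 0.27). Their part in the chaperonin values was not tested.

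Genes that work with the chaperonins were taken from lists chosen with earlier results known. Over all probe sets 3.23% were called higher and 2.42% lower in IgMG cells, and 6.7% higher and 7.31% lower in IgM cells, which are the shares to set beside the counts below. Of the 4 prefoldin genes tested, 0 rose in IgMG cells (limma; 1 had an unadjusted p under 0.05, and the list's median log2 change was 0.18) and 1 in IgM cells, where Pfdn2, a prefoldin subunit, rose by 0.75 ± 0.17 (SE, adjusted p = 0.0191, limma). Of 16 clients tested, 2 fell in IgMG cells, and 1 rose and 1 fell in IgM cells. The cell cycle regulator Ccne1 fell in both (log2 change -0.88 ± 0.21 and -0.78 ± 0.21, adjusted p = 0.0456 and 0.0385, limma), Gnb2, a G protein beta subunit, fell in IgMG cells (-0.80 ± 0.18, adjusted p = 0.0404) and the alpha tubulin Tuba1c rose in IgM cells (0.75 ± 0.17, adjusted p = 0.0195). The client list had median log2 changes of -0.02 and -0.06 in IgMG and IgM cells, close to those over all probe sets. None of the 2 phosducin-like cofactors or of the 3 tubulin cofactors tested was called in either receptor (limma; 1 of the phosducin-like cofactors in each receptor and none of the tubulin cofactors had an unadjusted p under 0.05), and the phosducin-like cofactors Txndc9 and Pdcl3 had log2 changes of 0.51 ± 0.20 and 0.17 ± 0.22 in IgMG cells and of 0.50 ± 0.20 and 0.01 ± 0.22 in IgM cells. The tubulin cofactors Tbce and Tbcb had 0.36 ± 0.20 and 0.12 ± 0.23 in IgMG cells and 0.08 ± 0.20 and -0.52 ± 0.23 in IgM cells.

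Some mitochondrial partners rose with HEL in both receptors. Of 8 mitochondrial chaperones and proteases tested, 1 rose in IgMG cells and 2 in IgM cells. The list's median log2 changes were 0.04 and 0.37, against -0.05 and -0.02 over all probe sets tested. Hspa9, the matrix Hsp70 that receives imported proteins ahead of Hsp60, had signals of 881.0 and 888.1 in IgMG cells with HEL, against 465.2 and 352.1, and 923.8 and 978.3 in IgM cells with HEL, against 380.5 and 461.5. It rose in both, by 1.10 ± 0.18 and 1.15 ± 0.18 on the log2 scale (adjusted p = 0.0126 and 0.00440, limma), and the matrix protease Lonp1 rose in IgM cells (0.68 ± 0.18, adjusted p = 0.0370). Of 17 import genes, 2 rose in IgMG cells, and in IgM cells 4 rose and 1 fell. Their median log2 changes were 0.17 and 0.53. The intermembrane space chaperone Timm8a1 rose by 1.90 ± 0.19 and 1.77 ± 0.19 (adjusted p = 0.00103 and 0.000785, limma) and the channel protein Timm23 by 0.74 ± 0.14 and 1.15 ± 0.14. In IgM cells Timm9, a chaperone of the intermembrane space, rose by 0.94 ± 0.25 (adjusted p = 0.0396, limma; 0.95 ± 0.25 in IgMG cells, adjusted p = 0.0649), and Tomm7, a part of the outer membrane import pore, fell by 0.74 ± 0.19 (adjusted p = 0.0331; 0.07 ± 0.19 in IgMG cells). Of 16 cytosolic heat shock chaperones tested, 6 rose in IgMG cells and, in IgM cells, 6 rose and 1 fell. Hsph1, Dnaja1, St13 and Hsp90aa1, which serve the Hsp70 and Hsp90 machines, rose in both receptors by between 1.23 and 1.94 on the log2 scale. In each of these partner lists, 0 genes had a difference of HEL responses past limma's threshold, and at an unadjusted p under 0.05 there were 2 clients, 4 import genes and 1 cytosolic heat shock chaperone, against 10.1% of all probe sets. Cct6b, a relative of Cct6a best known from testis, had log2 changes of -0.13 ± 0.29 and 0.21 ± 0.29.

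**Figure D5:**
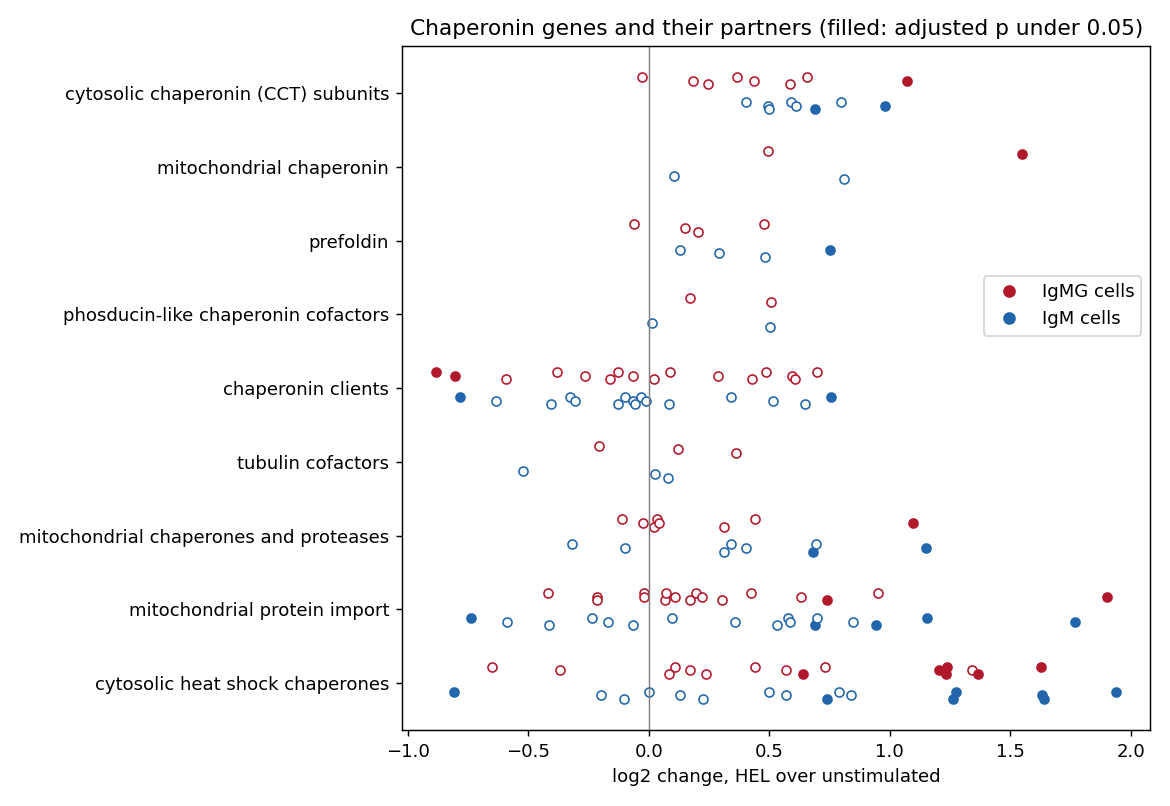
Log2 change with HEL of every tested gene of the chaperonin lists and their partner lists, in IgMG cells (red, upper row of each list) and IgM cells (blue, lower row). Filled points passed an adjusted p under 0.05; most cytosolic heat shock chaperones lie to the right of 0 and the clients lie on both sides of it.

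Over the 8 arrays, the 6 tested genes whose log2 profile was nearest the mean of the cytosolic subunits were Nop10, Eif1ax, Rbmxl1, Lamp1, Pak1ip1 and Agfg1, with root mean square differences of 0.069, 0.073, 0.077, 0.079, 0.080 and 0.084 (median over 6673 probe sets, 0.416). Among the subunits themselves Cct7 was nearest that mean (0.0995) and Cct6a farthest (0.282). Each subunit is part of that mean, which brings it nearer, so these distances are not comparable with those of other genes. Hspd1 and Hspe1, which are not part of it, differed from it by 0.466 and 0.261. Nearest the mean of Hspd1 and Hspe1 were Naa15, Septin11, Serf2, Lamp2, Nt5dc3 and Smarca5, from 0.122 to 0.171 against a median of 0.538.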

How the data were processed

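Follicular B cell RNA was hybridised to 8 arrays in 4 groups of 2, grouped by title. The values the authors deposited are linear intensities, 1 for each probe set, made with MAS 5 per the submitters' processing notes. No further setting is given in the sources used here. The trimmed mean (2% cut from each end) was 150.1 on every array, so the values had been scaled to a common level. Median intensity per array was 40.7 to 47.8.

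Of 12488 probe sets, 66 controls were left out, and the brightest 60% by mean signal (7453 of 12422, lowest mean 24.5) were tested as log2(signal + 16), an offset that understates changes of dim genes. Symbols came from the platform annotation of 2016. A gene is given by its brightest probe set. Tests were two-sided, in limma 3.58.1 (R 4.3.3), in 1 fit of the 4 groups, moderated with a variance trend (4 residual and 4.87 prior degrees of freedom) and Benjamini-Hochberg adjustment over all probe sets at 0.05. Log2 changes carry the fit's standard errors. The number of arrays limits the precision, and exact permutation of 2 against 2 arrays reaches at best p = 0.333.

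The members and lists were chosen with earlier results of these data known. All members are named. Of each other list up to 4 genes are named, first those past the threshold in both HEL responses, then those past it in 1, by mean log2 change, or up to 2 where none passed. Tested on simulated data with 7453 genes, the scripts recovered 40% of simulated log2 changes of 1 in each HEL response, and 82% (IgMG) and 80% (IgM) of those of 2. Alternatives covered the offset, scaling, filter, variance trend, arrays in the fit, averaging of probe sets, a replicate block, the Gapdh 5′/3′ ratio as covariate and each array left out. Promoter windows are RefSeq's (GRCm38.p6). The files name no genome build, so no probe position is given. Figures used matplotlib 3.10.9 in Python 3.11.15.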

Additional observations from a re-analysis of the deposited data

How the results depend on the processing

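With 2 arrays per group, counts of called genes moved with the processing; the cause was not tested. In IgMG cells (2 genes) the count was 1 with all probe sets tested, 1 with no variance trend, 0 with only the arrays compared, 1 with the Gapdh ratio as covariate and 0 to 2 with each array left out. It was 0 without the first or the second IgMG array with HEL, and Hspd1 alone was called without either unstimulated IgMG array or without either IgM array with HEL. In IgM cells (2 genes) the count was 1 with an offset of 4, with each array centred on its median, with all probe sets tested, with no variance trend, with the replicate block and with the Gapdh covariate. It was 3 with the brightest 40% (Cct6a added), with the mean of a gene's probe sets (Cct6a added) and with only the arrays compared (Hspd1 added), and with quantile normalization it was 2 with Cct6a in place of Cct8. It was 0 to 4 with each array left out, namely 0 without the second IgM array with HEL or the first unstimulated IgM array, 1 without either IgMG array with HEL or the second unstimulated IgM array, and 4 (Cct3, Cct6a, Cct8 and Hspd1) without either unstimulated IgMG array. The mean response (5 genes; this contrast was chosen after seeing the data) had 3 with no variance trend and 3 to 5 with each array left out, 3 without either IgMG array with HEL, the second IgM array with HEL or the first unstimulated IgM array; Cct3, Cct6a and Hspd1 were called in every one of the 19 alternatives run. The difference of responses and both comparisons of IgMG with IgM cells had 0 genes past limma's threshold in every alternative. Leaving out both arrays that stand apart, chosen after seeing the data, gave 2, 2 and 4 genes for the IgMG, IgM and mean responses.

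Experiment numbers correlated between -0.16 and 0.015 in their deviations, so they were not read as pairs; with the replicate block 2 genes were called in IgMG cells, 1 in IgM cells and 6 for the mean response.

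Values that were not called changed sign under some alternatives. For HEL in IgMG cells, Cct5 (-0.03) was 0.03 with median centring, 0.13 as the mean of probe sets, 0.032 with the Gapdh covariate and -0.11 to 0.057 with each array left out; Cct4 ranged from -0.027 to 0.39 and Cct8 from -0.0076 to 0.50. For HEL in IgM cells, Hspe1 ranged from -0.12 to 0.33. For the difference of responses, the Gapdh covariate gave Tcp1 -0.32, Cct2 0.32 and Cct6a -0.067, and Cct2 was 0.25 without both arrays that stand apart; with each array left out, Tcp1 ranged from -0.29 to 0.39 and Cct2 from -0.51 to 0.20. For IgMG against IgM with HEL, Cct2 was 0.011 with median centring, 0.45 with the covariate and 0.33 without both arrays; Hspe1 was -0.019 with quantile normalization, -0.17 with the covariate and -0.061 without both arrays; Cct6a was -0.12 with the covariate. With each array left out, Cct2 ranged from -0.38 to 0.33, Hspe1 from -0.26 to 0.29, Cct6a from -0.031 to 0.48 and Tcp1 from -0.58 to 0.10. Without HEL, Cct8 was -0.0131 with median centring, and without both arrays Cct3, Cct4 and Cct8 were -0.068, 0.056 and -0.20. With each array left out, Cct3 ranged from -0.068 to 0.26, Cct4 from -0.14 to 0.056, Cct5 from -0.27 to 0.18, Cct6a from -0.28 to 0.18, Cct8 from -0.20 to 0.31, Hspd1 from -0.96 to 0.049 and Tcp1 from -0.63 to 0.053.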
